A study of Mus musculus with 2 samples.

Results

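Radial spokes and the central pair are parts of the axoneme, the microtubule core of motile cilia, and 10 mouse genes for them were followed here in fetal lung with and without a functional copy of the transcription factor gene Foxj1. The members were taken by gene name, current symbol or synonym from the array's annotation as Rsph1, Rsph4a, Rsph9, Dydc1, Dydc2, Dnajb13, Spag6, Spag17, Spag16 and Hydin, out of 27591 gene names on the array. Together they had 16 probes, of which 10 were well above background in both channels, 1 in the heterozygous channel only and 5 in neither. In all, 9 of the 10 members were measured, 8 of them in both channels, and Dydc1 was not.

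The samples were the lung lobes of 1 homozygous (Foxj1 -/-) and 1 heterozygous (Foxj1 +/-) male mouse embryo of the same litter at E16.5 (embryonic day), freed of tissue outside the lobes. The strain was an Sv129/CD-1 hybrid, with Foxj1lacZ on both chromosomes of the homozygous and on 1 of the heterozygous embryo, so no wild-type lung stands beside them. Homozygous RNA was labelled with Cy5 (red) and heterozygous RNA with Cy3 (green), and both were hybridised to 1 Agilent two-colour array. Genotype, dye and animal therefore cannot be told apart, no difference has a replicate check, and no p-value is given. Ratios are log2 of homozygous over heterozygous, and levels are normalized log2 intensities of 1 channel. Errors given as ± are those that the Feature Extraction software attached to its log ratio, turned to log2, and each covers spot and channel noise and not animals.

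The spokes reach from the outer microtubules of the axoneme towards the central pair and pass mechanical signals to the dynein motors. Each has a stalk on the outer microtubule, a neck, and a head that faces the projections of the central pair. The central pair is a couple of single microtubules, C1 and C2, each with its own projections, and loss of spoke head proteins in human primary ciliary dyskinesia leaves cilia with missing central pairs and altered beating. In the airway such cilia belong to multiciliated cells, which first differentiate in the fetal lung, and Foxj1 drives their motile cilium genes.

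The array carried 43379 transcript spots, none saturated, and 75.6% of them passed the scanner's test against background in the homozygous and 69.0% in the heterozygous channel. The SD of the log2 ratio was 0.058 between repeated spots (215 probes) and 0.27 among the probes of a gene (7144 genes with several), and 21171 genes were measured in at least 1 channel. Foxj1 itself stood at a level of 7.61 in the homozygous and 9.53 in the heterozygous lung, a ratio of -1.92 ± 0.30 from 1 probe. Its place relative to the sequence deleted in Foxj1lacZ is not known here, so it may not check the labels. Source names call the material lung epithelium and titles call it lung lobes. All 10 markers of lung epithelium and all 8 of mesenchyme in the lists were measured in both channels, so the RNA held both tissues, and fewer cells of a type and less RNA per cell cannot be told apart in it.

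All 9 measured members had a lower level in the homozygous lung. In total 6 of the 9 were at least 2-fold lower, with Rsph4a counted by its bound, and none was 2-fold higher. Rsph4a passed the background filter through the heterozygous channel alone, and with it left out the count was 5 of 8. Over the whole array 1.86% of the measured genes passed the 2-fold line downwards and 0.572% upwards, which is 394 against 121 genes. With the median over all transcript spots shifted to 0 instead of loess it was 294 against 723. The median of the measured genes was then 0.22 higher than with loess. At 1.5-fold, 7 of the 9 members were lower, against 5.82% of all measured genes. The median ratio of the 9 members was -1.17, against -0.0027 over all measured genes, and single members ran from -2.72 for Dydc2 to -0.47 for Hydin. Leaving out each member in turn kept the median between -1.31 and -1.14. The order is only partly resolved, and Rsph4a, known as a bound, has no place in it. Among the 8 members measured in both channels, Dydc2 lay below the next, Dnajb13, by 0.99 against a combined scanner error of 0.53. In the other 6 of 7 neighbouring pairs the difference was within the combined error. This comparison is rough, since the errors belong to the scanner's log ratio and the offset used here shrinks differences among dim genes. With the scanner's log ratio Dnajb13 stood at -2.91 and Spag6 at -2.07, against a combined error of 0.46. Spag17 (-1.68) then lay below Rsph1 (-1.33). The pairs were not all compared anew on that scale.

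**Figure D1:**
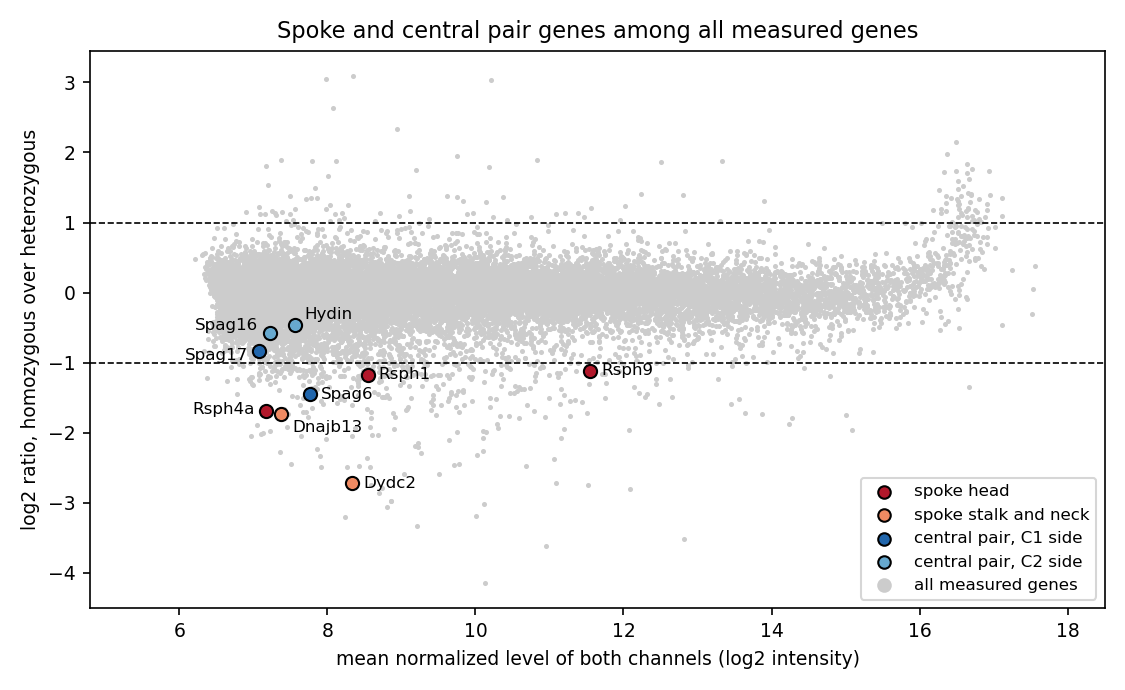
Each point is 1 measured gene, with the mean normalized level of both channels (log2 intensity) on the horizontal axis and the log2 ratio of homozygous over heterozygous on the vertical axis; dashed lines mark 2-fold. The 9 measured spoke and central pair genes, coloured by role, lie below 0, and 6 of them lie below the lower line.

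The spoke head had all 3 of its members at least 2-fold lower in the homozygous lung, Rsph4a by its bound only. Rsph1, a head protein built of MORN repeats, had a level of 7.96 in the homozygous and 9.13 in the heterozygous lung, which is 2.25-fold lower at -1.17 ± 0.24. Its only probe, listed under the older name Tsga2, covers 162 bases of the minus strand of chromosome 17 (mm8 chr17:31002119-31002280) with 60 bases of sequence, and so joins stretches that are apart in the genome. It is shown because it is the whole basis of the Rsph1 value, and 2 of its 3 forward frames hold no stop codon.
Rsph1 probe: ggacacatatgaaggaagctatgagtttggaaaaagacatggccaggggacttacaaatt

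Rsph9, another protein of the head, was at 10.99 in the homozygous and 12.1 in the heterozygous lung, or 2.17-fold lower at -1.12 ± 0.23 (mm8 chr17:45592911-45592970, minus strand). It was the brightest member, with a mean signal before normalization of 2885 in the homozygous channel, on a local background of 56, and 3144 in the heterozygous channel, on a background of 46. Dye normalization bears on the 2-fold call of this gene and of Rsph1. With a plain median centring, Rsph9 stood at -0.55 and Rsph1 at -0.92, both short of 2-fold, and that centring raised the median of all genes by 0.22.

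Rsph4a, a head protein whose human counterpart is mutated in primary ciliary dyskinesia, was well above background in the heterozygous lung only. Its level was 6.32 in the homozygous and 8.02 in the heterozygous lung, and the lowest probe called well above background in the homozygous channel also stood at 6.32. The fall is thus given as a bound of 3.23-fold lower in the homozygous lung. It was computed from the heterozygous level over the higher of the probe's own level and that lowest level. The probe's own level was the higher, so the bound equals its ratio of -1.69 ± 0.48 and makes no allowance for that error. The raw signal was 98.4 on a local background of 51.5 in the homozygous channel, against 254.6 on a background of 44 in the heterozygous channel. The single probe, listed as Rshl3, lies on the plus strand of chromosome 10 (mm8 chr10:33604856-33604915).

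**Figure D2:**
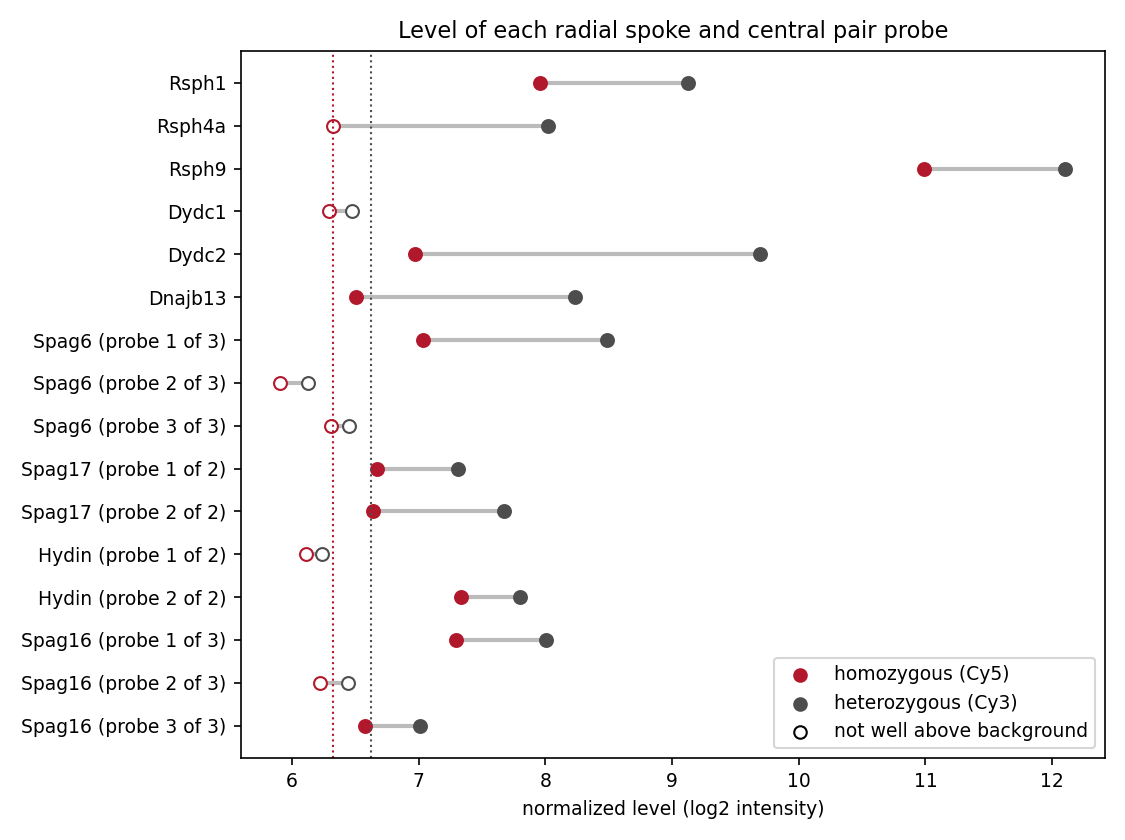
Normalized level (log2 intensity, horizontal axis) of every probe of the 10 genes in the homozygous (red) and heterozygous (grey) channel, with open circles where the probe was not well above background and dotted lines at the lowest level called well above background in each channel. The homozygous point lies left of the heterozygous point for every probe, and Dydc2 stands at 6.97 (homozygous) and 9.69 (heterozygous).

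Both measured members of the stalk and neck were at least 2-fold lower in the homozygous lung. Dydc2, a protein with a DPY30 domain like that of the Chlamydomonas spoke protein RSP2, was at 6.97 in the homozygous and 9.69 in the heterozygous lung. It was 6.59-fold lower at -2.72 ± 0.40, which ranked 16 from the lowest among the 21171 measured genes. Dnajb13, an HSP40-type chaperone family member that is itself a structural part of the spoke, was at 6.51 in the homozygous and 8.24 in the heterozygous lung, 3.31-fold lower at -1.73 ± 0.36. Its homozygous level stood only a little above the lowest level called well above background in that channel, 6.32, and with the log ratio deposited from the scanner it stood at -2.91. The Dnajb13 probe (mm8 chr7:100380208-100380267, minus strand) is shown as the sequence behind that value, and 2 of its 3 forward frames hold no stop codon.
Dnajb13 probe: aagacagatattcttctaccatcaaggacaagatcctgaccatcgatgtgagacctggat

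Dydc1, the neighbour and relative of Dydc2, was not well above background in either lung. Its probe gave 6.29 in the homozygous and 6.48 in the heterozygous channel, levels at which no ratio is reported. In the RefSeq gene table (GRCm38.p6) the pair lies head to head on chromosome 14. The annotated start of Dydc1 on the plus strand and that of Dydc2 on the minus strand are 126 bases apart, with the first 127 bases of the transcripts overlapping. The windows from 250 bases before to 50 bases after each start are shown (RefSeq, GRCm38.p6), since they belong to a member with a large fall and its unmeasured partner. Dydc2 has another annotated start further inside the gene, not shown. Capitals mark GTTGCC or GTTACC on either strand, the half-site of the X-box that RFX factors bind.
Dydc2, chr14:41072988-41073287, minus strand: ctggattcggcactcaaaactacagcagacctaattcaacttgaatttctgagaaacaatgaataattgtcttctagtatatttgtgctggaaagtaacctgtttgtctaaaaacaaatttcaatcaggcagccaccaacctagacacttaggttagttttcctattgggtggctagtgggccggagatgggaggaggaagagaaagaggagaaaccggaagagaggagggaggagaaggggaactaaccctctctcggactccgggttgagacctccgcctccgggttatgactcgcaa
Dydc1, chr14:41072661-41072960, plus strand: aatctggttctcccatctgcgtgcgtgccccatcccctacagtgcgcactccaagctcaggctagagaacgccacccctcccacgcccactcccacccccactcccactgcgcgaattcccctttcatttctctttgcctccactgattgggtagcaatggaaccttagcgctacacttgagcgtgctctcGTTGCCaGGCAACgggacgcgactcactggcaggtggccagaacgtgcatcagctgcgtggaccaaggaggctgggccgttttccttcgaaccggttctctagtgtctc

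The Dydc1 window holds a pair of such half-sites facing each other with 1 base between them, which begins 59 bases before the Dydc1 start and 185 bases inside the transcribed region of Dydc2. This arrangement (GTTNCC, then 0 to 3 bases, then GGNAAC) was present in 0.804% of 32851 promoter windows of the same length and in 1 of the 10 windows of the members. At least 1 half-site was present in 6 of the 10 windows, against 18.6% of all windows. These were the windows of Spag16, Hydin, Spag17, Dydc1, Spag6 and Spag6l. Of those genes, Spag6l, whose probe gives the Spag6 value, was at least 2-fold lower at -1.45. Spag16, Hydin and Spag17 were short of 2-fold, and Dydc1 and the gene now called Spag6 were not measured. The windows of Dydc2, Dnajb13 and Rsph9, all at least 2-fold lower, held no half-site. A link to the ratios was not tested. The most half-sites, 3, were in the window of Spag16, a central pair gene described further on, whose sequence is given with the same marking.
Spag16, chr1:69826720-69827019, plus strand: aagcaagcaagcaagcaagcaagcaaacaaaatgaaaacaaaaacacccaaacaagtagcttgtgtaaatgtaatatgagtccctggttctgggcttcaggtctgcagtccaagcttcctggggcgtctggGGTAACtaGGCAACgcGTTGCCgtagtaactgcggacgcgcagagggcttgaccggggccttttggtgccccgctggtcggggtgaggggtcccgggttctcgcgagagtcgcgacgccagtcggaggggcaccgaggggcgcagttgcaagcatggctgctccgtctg

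The forkhead letters GTAAACA were found on either strand in 0 of the 10 windows and in 3.65% of all. The 10 windows belong to 9 gene names, with Dydc2 having 2 windows, Spag6 and Spag6l both counted and Rsph1 and Rsph4a not matched. A match or its lack describes these letters only.

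On the C1 side of the central pair, Spag6 passed 2-fold and Spag17 did not, a difference between them that has no test. Spag6 is the mouse counterpart of the alga Chlamydomonas PF16, an armadillo-repeat protein of the C1 microtubule. Of the 3 probes listed for it, 1 was measured, and its accession now belongs to the gene called Spag6l on chromosome 16 (mm8 chr16:16666876-16666935, minus strand). That probe was at 7.04 in the homozygous and 8.49 in the heterozygous lung, 2.73-fold lower at -1.45 ± 0.29. The probe for the copy now called Spag6 on chromosome 2 stood at 6.31 in the homozygous and 6.45 in the heterozygous channel, well above background in neither. The remaining probe, also on chromosome 16, was dimmer still at 5.91 in the homozygous and 6.12 in the heterozygous channel. How far RNA of one copy binds the probe of the other was not tested. With no filter on dim probes, the median of all 3 probes was -0.22.

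Spag17, counterpart of PF6 and a large protein of a C1 projection, was measured by 2 probes. One (mm8 chr3:100178211-100178269) was at 6.67 in the homozygous and 7.31 in the heterozygous lung, at -0.64 ± 0.32. The other (mm8 chr3:100183958-100184017) was at 6.64 in the homozygous and 7.67 in the heterozygous lung, at -1.03 ± 0.32. Their median of -0.84 was short of 2-fold, and the homozygous levels of both lay near the lowest measured level of 6.32. With the log ratio deposited from the scanner, the median of the pair was -1.68. That ratio was made without the offset of 50 that was added here to both channels before the log. The brighter probe alone, the second given here, stood at -1.03 as processed here and at -1.89 with the scanner's log ratio. The probes, both on the plus strand, are shown because they are the only measured probes of 1 member on either side of the 2-fold line.
Spag17 probe, first: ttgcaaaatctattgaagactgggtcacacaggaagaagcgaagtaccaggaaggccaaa
Spag17 probe, second: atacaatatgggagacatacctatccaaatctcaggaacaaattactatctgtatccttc

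Neither member of the C2 side was 2-fold lower. Spag16, counterpart of PF20, a WD-repeat protein of the C2 microtubule and the bridge between the pair, had a level of 6.93 in the homozygous and 7.51 in the heterozygous lung, at -0.57 ± 0.32. The probe whose source is a cDNA from embryonic spinal cord was at -0.71 ± 0.25 and that for transcript variant 2 at -0.44 ± 0.40. The probe for transcript variant 1 was not well above background in either lung, at 6.22 in the homozygous and 6.44 in the heterozygous channel. Hydin, a very large protein of a C2 projection whose loss causes hydrocephalus in mice, was at 7.33 in the homozygous and 7.80 in the heterozygous lung, at -0.47 ± 0.24. That value comes from 1 probe (mm8 chr8:113496650-113496709, plus strand), shown as the whole basis of the Hydin ratio, and a further Hydin probe was at background in both channels.
Hydin probe: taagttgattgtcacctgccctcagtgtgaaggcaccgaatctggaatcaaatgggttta

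**Figure D3:**
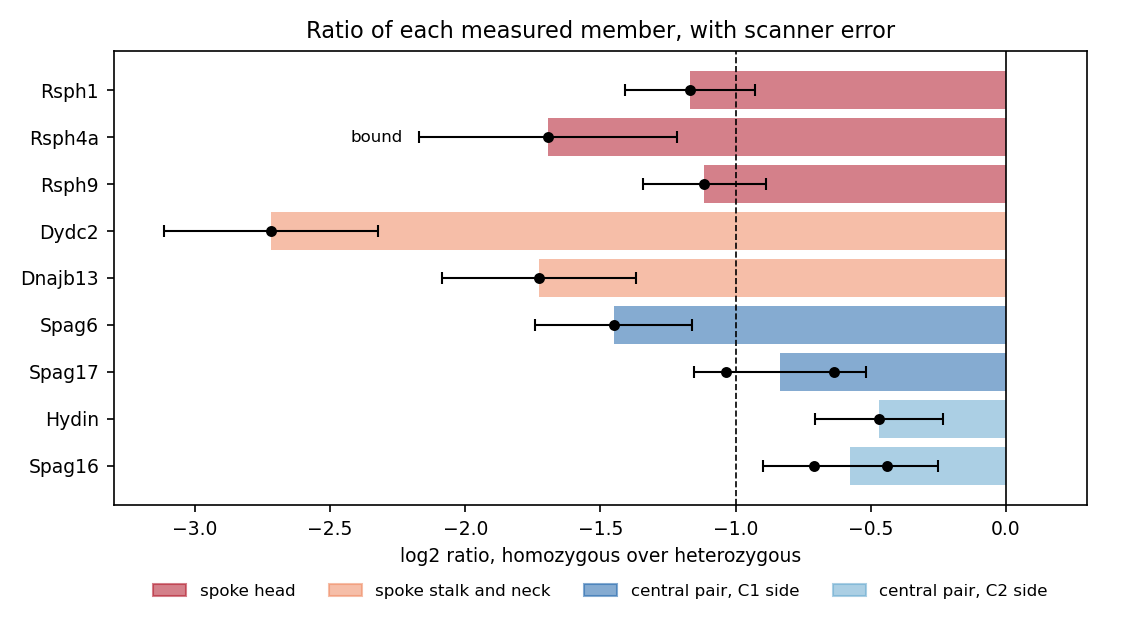
Bars give the log2 ratio of homozygous over heterozygous (horizontal axis) for each measured member, coloured by role, with whiskers for the scanner error, dots for single measured probes and a dashed line at 2-fold. All bars point below 0, from -2.72 for Dydc2 to -0.47 for Hydin, and the value of Rsph4a is a bound.

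By role, 3 of 3 measured head members, 2 of 2 measured stalk and neck members, 1 of 2 on the C1 side and 0 of 2 on the C2 side were at least 2-fold lower in the homozygous lung. Groups this small and without replicates allow no test of a difference between roles. Of the head members, Rsph4a was counted by its bound, and Rsph1 and Rsph9 were short of 2-fold with median centring. With an offset of 0 in place of 50, and nothing else changed, Spag16 was at -0.87 and Hydin at -0.63, still short of 2-fold. With the scanner software's log ratio, which also differs in background and dye correction, Spag16 was at -1.25 and Hydin at -0.70.

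**Figure D4:**
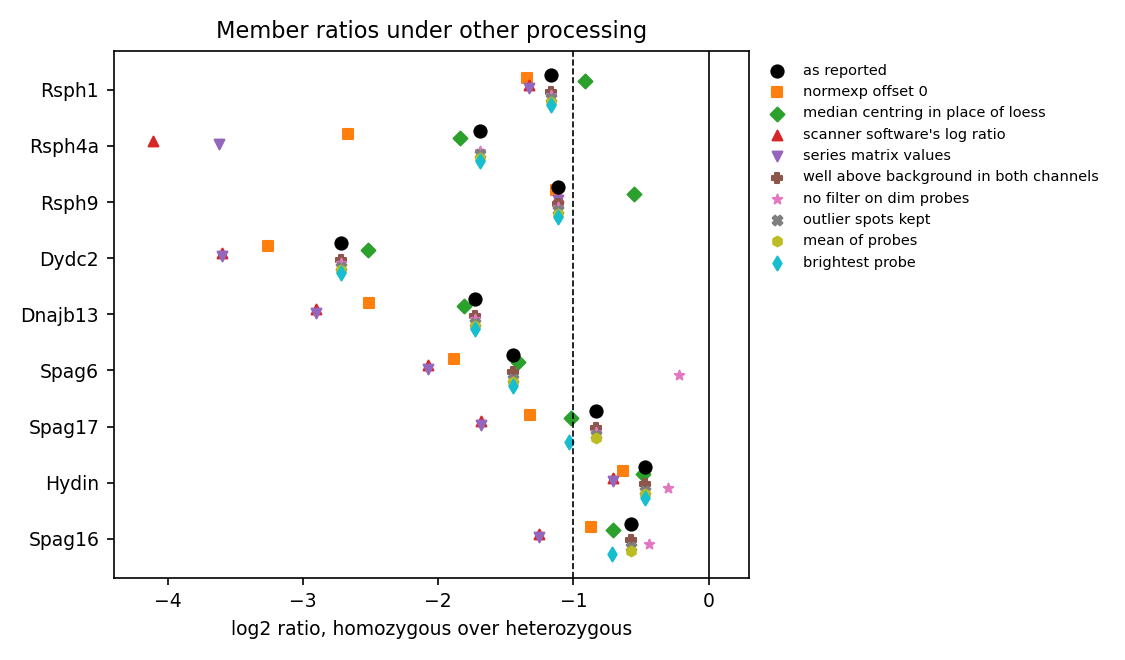
Log2 ratio of homozygous over heterozygous (horizontal axis) of each measured member as reported (black circles) and under 9 other ways of processing, with a dashed line at 2-fold. All values lie below 0, Rsph4a reaches -4.11 with the scanner's own ratio, and Rsph9, at -1.12 as reported, stands at -0.55 with median centring.

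Further genes linked to the same structures were described from 2 lists. Of 20 other spoke genes, 16 were measured, 15 of them below 0 and 7 at least 2-fold lower in the homozygous lung, with a median of -0.94. Morn5 (-2.10 ± 0.29), the nucleoside diphosphate kinase relative Nme5 (-1.71 ± 0.26), the leucine-rich repeat protein Lrrc23 (-1.24 ± 0.23) and Morn3 (-1.05 ± 0.36) were the lowest of those measured in both channels. Cfap20dc (0.04 ± 0.21) and the stalk-base protein Cfap251, listed as Wdr66 (-0.02 ± 0.31), were the highest. Iqub, measured in the heterozygous lung only, had a bound of 2.39-fold lower, which equals its own ratio of -1.26 ± 0.39. Of 24 other central apparatus genes, 21 were measured, 16 in both channels and the rest in the homozygous channel only. Of the 21, 16 were below 0 and 3 at least 2-fold lower, with a median of -0.27. Over both lists, probes well above background in both channels gave a median of -0.58 (31 genes), against -0.44 (37 genes) as reported. The lowest were Enkur (-2.03 ± 0.30), the adenylate kinase Ak7 (-1.27 ± 0.35), Cfap69 (-1.01 ± 0.23) and Mycbpap (-0.69 ± 0.22). The highest of those measured in both channels were Cfap54 (0.11 ± 0.26) and Spata17 (-0.03 ± 0.52). The 2 probes of Ak7 were far apart, at -2.69 and 0.16. None of the genes of either list was 2-fold higher.

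Other parts of the cilium stood on both sides of the 10 genes. Among tektins and proteins of the microtubule lumen, 11 of 15 measured genes were at least 2-fold lower in the homozygous lung, with a median of -1.52 and a range from Meig1 (-3.01) to Mns1 (0.34). Enkur stands in this list and in that of the central apparatus. Of the nexin-dynein regulatory complex, 3 of 11 were at least 2-fold lower with a median of -0.28, from Drc1 (-2.28) to Tcte1 (0.36). Of outer arm dyneins and their docking proteins, 0 of 7 passed 2-fold and the median was -0.42, from Odad4, listed as Ttc25 (-0.66), to Dnal1 (-0.05). Intraflagellar transport genes, which serve primary cilia as well, had 0 of 16 and a median of -0.15, from Ift27 (-0.45) to Ift52 (0.15). No test sets these lists apart from the 10 genes.

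**Figure D5:**
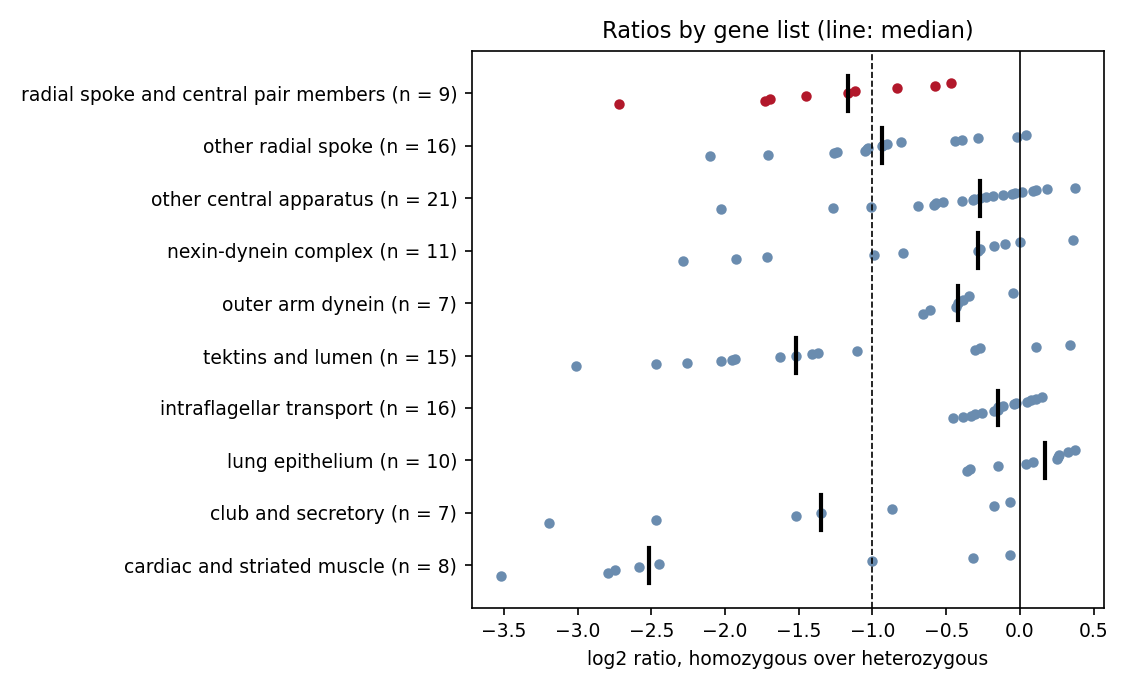
Each dot is the log2 ratio of homozygous over heterozygous (horizontal axis) of 1 measured gene, with a row for each gene list, a black line at the list's median and a dashed line at 2-fold. The spoke and central pair members have a median of -1.17, between tektins and lumen proteins at -1.52 and intraflagellar transport at -0.15. Of the lists outside the cilium, cardiac and striated muscle has a median of -2.51, club and secretory -1.35 and lung epithelium 0.17.

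Markers of other cells moved in the same samples, and their part in the results was not tested. Of 11 measured markers of multiciliated cells, Foxj1 included, 5 were at least 2-fold lower in the homozygous lung. One of them, Tmem212, was measured in the heterozygous lung only and counted by its bound of 3.52-fold lower. Levels of the 11 summed on the linear scale to 6808 in the homozygous and 17187 in the heterozygous lung. Their ratios ran from Fam183b (-3.62) to Rfx2 (0.17). Of 7 measured club and secretory cell markers, 4 were 2-fold lower, with sums of 80528 in the homozygous and 206418 in the heterozygous lung and ratios in both channels from Scgb3a1 (-3.19) to Muc5b (-0.17), which was named after its value was seen. Tff2 was well above background in the homozygous lung only and has no fold. Of 8 cardiac and striated muscle markers, 6 were 2-fold lower, with sums of 17814 in the homozygous and 46357 in the heterozygous lung, from Myl7 (-3.52) to Actc1 (-0.07). General lung epithelial markers had 0 of 10, with sums of 368337 in the homozygous and 346985 in the heterozygous lung, from Krt8 (-0.36) to Epcam (0.37). Mesenchyme had 0 of 8 (from Twist1 at -0.30 to Col1a2 at 0.48), endothelium 0 of 5 (from Kdr at -0.38 to Cdh5 at 0.08), leukocytes 0 of 5 (from Cd3e at -0.44 to Cd68 at 0.41) and erythroid cells 1 of 3 measured (from Alas2 at -1.73 to Hba-a1 at 0.06). Of the markers on the array, Cdhr3 (multiciliated) and Bpifa1 (secretory) were well above background in neither channel. The sums are weighted towards the brightest genes. In lung epithelium this was Sftpc (17.41 homozygous, 17.09 heterozygous), and among club and secretory markers Scgb3a2 (15.99 homozygous, 17.34 heterozygous). Of the 10 lung epithelial markers, 3 were below 0.

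The genes beside the members on the chromosome were also read. The nearest protein-coding gene on each side of a member, in the order of the RefSeq table (GRCm38.p6) and with Spag6l as the place of Spag6, gave 18 genes that are no members, of which 15 were measured. Their median ratio was -0.06, their ratios ran from -0.31 for Slc37a1, beside Rsph1, to 0.56 for Prxl2a, beside Dydc2. Of the 15, 0 were 2-fold lower, and among all measured genes that share was 1.86%. On the other side of Dydc1, Mat1a was at 0.47 ± 0.22. Beside Dnajb13, Ucp2 was at 0.05 ± 0.20 and Coa4 at 0.15 ± 0.20.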

How the data were processed

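Lung lobe RNA of 1 homozygous and 1 heterozygous embryo was measured on 1 two-colour array, and the 2 deposited scanner files are byte for byte the same, so they count as 1 array. Spot and background intensity values were deposited as Agilent Feature Extraction 9.5.3.1 wrote them, per the submitters' processing notes. The deposited log10 ratio of red over green processed signal was made, per the file headers, after detrending and a LOWESS correction between dyes (smoothing 0.25), with dim spots set to surrogates. In the authors' deposited series matrix, each sample's column is its channel's processed intensity times 1.68, not on a log scale or centred per gene, with a floor of 15 and medians of 138.8 (homozygous) and 139.8 (heterozygous), judged against the scanner's columns.

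From these files, normexp (offset 50) was run on mean signals and local median backgrounds, then loess for the dyes, ignoring control spots, in limma 3.58.1 under R 4.3.3 with the data.table package 1.17.8. Outlier spots (169) were left out. Probes needed over a 0.5 share of spots well above background in 1 channel or both, and each gene is the median of such probes. The offset understates changes of dim genes. Probes were named by accession (24372), symbol (6300) or synonym (2425) in a RefSeq table of GRCm38.p6, and 8070 kept the file's name. Probe coordinates (mm8) come from the scanner files. Later steps used Python 3.11.15, numpy 2.4.6, pandas 2.3.3 and matplotlib 3.10.9. Array number limits the precision. Genes were called by size alone, at 2-fold, and a gene measured in 1 channel by its bound. Named genes were the 10 members, Foxj1, the 4 lowest and 2 highest of each other spoke and central apparatus list with bounds of at least 1.5-fold, and the ends of the other lists. Tmem212, Sftpc and Scgb3a2 were named after their values were seen. Members and lists were chosen with earlier results of these data known. Alternatives changed the background correction, dye normalization, filter, probe summary and source of values.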

Additional observations from a re-analysis of the deposited data

How the results depend on the processing

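Of 80 member ratios recomputed under 9 alternatives, all 80 stayed below 0, 20 moved by more than the gene's scanner error, 17 of them to a lower and 3 to a higher value, and none reversed. Many of these values could not move. Only 2 members had several measured probes, so the probe summary had no effect on the rest. Keeping outlier spots changed no member, and the series matrix repeated the scanner software's log ratio for all measured members but Rsph4a. The count of members at least 2-fold lower lay between 5 and 8 throughout. The members' median moved to -1.68 with the scanner software's log ratio and with the series matrix, which share their background and dye correction. Under both, the other spoke and central apparatus genes had 16 calls, against 10 of 37 as reported, and a median of -0.76, against -0.44. The division of all called genes into lower and higher was 394 against 121 as reported. It was 294 against 723 under median centring. The scanner software's log ratio gave 1081 lower and 324 higher genes, and an offset of 0 gave 756 lower and 176 higher. Rsph4a could not be given with probes well above background in both channels. The cause of these shifts was not tested. Dim signal limits Rsph4a, Dnajb13, Spag17 and the variant 2 probe of Spag16 (6.57), whose homozygous levels lay near background. No paired analysis was possible because there is 1 sample per genotype.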

Other observations

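Several members carry sperm-associated names, so genes of the sperm nucleus and tail were read beside them. Of 6 listed (Prm1, Prm2, Tnp1, Tnp2, Akap4 and Odf1), 5 were measured, 0 were at least 2-fold lower in the homozygous lung, and ratios ran from -0.26 ± 0.22 for Prm2 to 0.36 ± 0.21 for Prm1. Among other spoke genes, the sperm-fibrous-sheath relative Ropn1 was at -0.29 ± 0.22 and its relative Ropn1l at -1.04 ± 0.23, named after their values were seen.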
